A study of Saccharomyces cerevisiae with 12 samples.

Results

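The industrial wine strain EC1118 was compared with the laboratory strain CEN.PK113-7D during growth at 30 °C. All arrays titled with either strain at 30 °C were taken, 3 for EC1118 and 3 for CEN.PK113-7D, which are 6 of the 12 arrays of the study. Every probe set of the deposited table that stands for yeast sequence was tested, 5716 of 5900, and 184 control probe sets were left out. Both strains of Saccharomyces cerevisiae were held in nitrogen-limited anaerobic chemostats, on minimal medium with anaerobic growth factors, at a dilution rate of 0.05 per h. In a chemostat the dilution rate sets the growth rate, so the strains were compared while dividing equally fast. Each array carried biotin-labelled RNA of its own culture on the Affymetrix Yeast Genome 2.0 platform, and the study describes the 3 cultures per group as biological replicates. The other 6 arrays hold the same strains at 15 °C, which entered the fit for its estimate of the spread and for a test of whether a strain difference depended on temperature.

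The strains differ in ploidy and mating type. CEN.PK113-7D is known as a haploid of mating type a, and EC1118 as a diploid that carries both mating types, although the labels of these arrays state neither. A haploid a cell makes a-factor and the receptor for alpha-factor. Every haploid cell makes the signalling proteins that carry the pheromone message. In a diploid the a1-alpha2 repressor shuts off genes that both haploid types share, such as those of these signalling proteins. Yeast strains are also known to differ in the gene families near their chromosome ends, which encode sugar transporters, enzymes and membrane proteins. The array probes were designed on the laboratory reference S288C, so that a lower signal in either strain can come from less transcript, from a lost gene or from a changed sequence, and these cannot be told apart here.

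Values are deposited intensities on a linear scale, whose lowest value of 10 is called the floor. Array medians at 30 °C lay between 362 and 377, and 1.57% to 2.27% of probe sets were at the floor. In log2 intensity the correlation r between replicate arrays lay between 0.980 and 0.993, and between arrays of different strains from 0.893 to 0.911. No pair of arrays was identical. Depending on the gene, EC1118 replicate 1 or 2 stood apart from its group, in stress genes and in some others. This is given beside many of the genes and lists it touches. The abundant transcripts TDH3 and PGK1, which encode glycolytic enzymes, and CCW12, which encodes a cell wall protein, had log2 differences of 0.03 ± 0.05, 0.02 ± 0.04 and -0.00 ± 0.05 (estimate ± SE). Throughout, a log2 difference is the mean of EC1118 minus that of CEN.PK113-7D at 30 °C with its standard error (n = 3 and 3), and adjusted p comes from limma with Benjamini-Hochberg adjustment over all probe sets, with a threshold of 0.05.

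Between the strains 2375 of 5716 probe sets (41.6%) and 2264 of 5449 genes passed the threshold, 41.5% of the genes, with 1154 genes (21.2%) higher and 1110 (20.4%) lower in EC1118. The larger differences leaned the other way, with 122 genes at least 2-fold higher (2.24%) and 274 at least 2-fold lower (5.03%). Differences of at least 4-fold were found in 135 genes (2.48%), 33 higher (0.606%) and 102 lower (1.87%) in EC1118. The 3 arrays of each strain did not overlap for 54.9% of genes, and the median log2 difference of all genes was 0.01. Counts of gene lists below are to be read against these shares, since about 2 genes in 5 passed. The lists and the members they hold were chosen with earlier results of these data known.

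The a-specific genes had the lowest median difference of the 44 lists with a measured member. All 7 measured members were lower in EC1118, against 20.4% of all genes, with a median log2 difference of -5.60 and a range from -6.91 to -3.79. MFA2, which encodes the precursor of a-factor, read 6520.2, 6412 and 6299.5 in CEN.PK113-7D replicates 1, 2 and 3 and 62.5, 68.8 and 65.0 in EC1118, 98.1-fold lower (log2 difference -6.62 ± 0.16, adjusted p = 5.27e-10). MFA1, the other a-factor gene, read 5256, 5241 and 5337 against 238, 211 and 221 (log2 difference -4.56 ± 0.19, adjusted p = 3.47e-08). For both genes every CEN.PK113-7D array stood far above every EC1118 array, with little spread inside either strain.

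STE2, which encodes the receptor for alpha-factor, read 4421, 4367 and 3945 in CEN.PK113-7D and 76.3, 91.6 and 84.0 in EC1118, 50.6-fold lower (log2 difference -5.66 ± 0.13, adjusted p = 5.27e-10). BAR1, which encodes the secreted protease that destroys alpha-factor, read 1887, 1963 and 1724 against 14.7, 13.9 and 18.2, 120-fold lower (log2 difference -6.91 ± 0.21, adjusted p = 3.45e-09). STE6, the exporter of a-factor, fell from 1486, 1893 and 1646 to 39.2, 27.9 and 37.1 (log2 difference -5.60 ± 0.22, adjusted p = 2.02e-08). The EC1118 arrays of BAR1 lay just above the floor, so the size of its fold rests on dim values. AGA2, a subunit of a-agglutinin on the cell surface, was 41.0-fold lower, and ASG7, which damps pheromone signalling after fusion, at least 13.8-fold lower with EC1118 replicate 1 at the floor. In RNA of a whole culture, fewer cells that make a transcript and less of it per cell cannot be told apart.

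**Figure D1:**
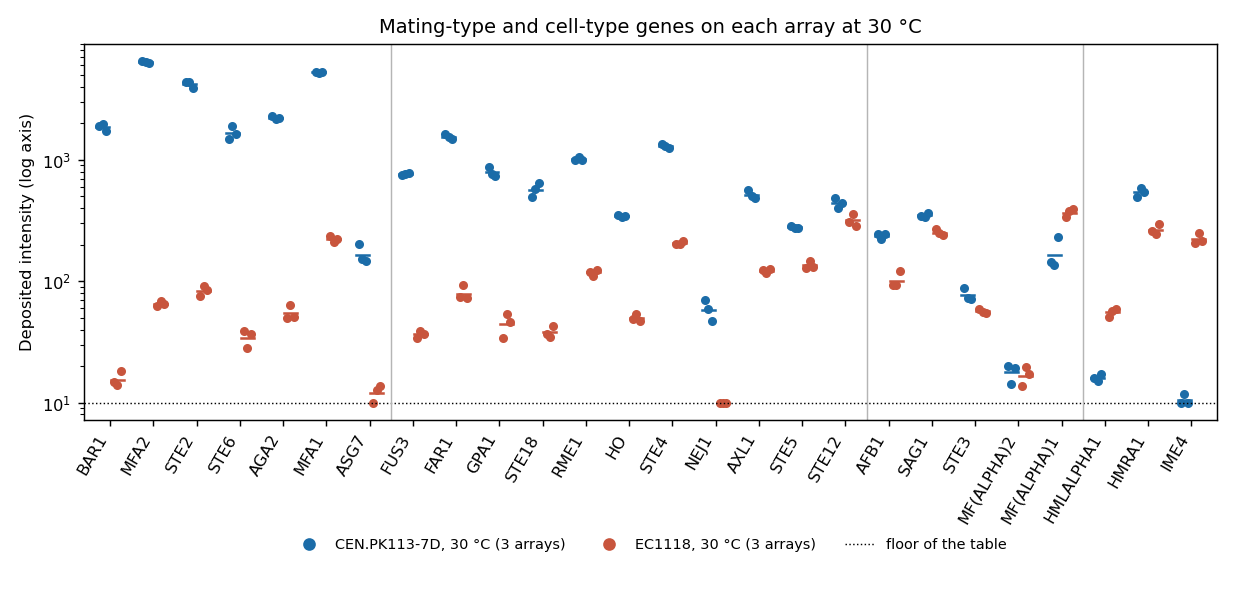
Intensity (log axis) of the a-specific, haploid-specific and alpha-specific genes and of HMLALPHA1, HMRA1 and IME4 on each of the 6 arrays at 30 °C. Points are arrays, short lines are means of log2 values, grey lines part the lists and the dotted line is the floor of 10; all 7 a-specific genes sit lower in EC1118, while IME4 sits near the floor in CEN.PK113-7D only.

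The haploid-specific genes, which act in pheromone signalling and mating-type biology of either haploid type, were lower in EC1118 for 11 of 11 measured members, with a median log2 difference of -2.79. The 3 subunits of the pheromone-coupled G protein were all among them. GPA1, the alpha subunit, read 875, 762 and 736 in CEN.PK113-7D and 34.4, 54.1 and 46.1 in EC1118 (log2 difference -4.16 ± 0.16, adjusted p = 1.61e-08). STE4, the beta subunit, read 1343, 1314 and 1244 against 204, 205 and 214, 6.26-fold lower, and STE18, the gamma subunit, 492, 573 and 645 against 36.5, 34.9 and 43.1, 14.9-fold lower. None of these 3 genes had overlapping arrays between the strains. The same held over the whole list, where 11 of 11 were lower without overlap, against 26.4% of all genes.

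Further down the same pathway, FUS3, the MAP kinase of mating, read 748, 769 and 779.6 in CEN.PK113-7D and 34.2, 39.3 and 36.8 in EC1118, 20.8-fold lower (log2 difference -4.38 ± 0.22, adjusted p = 1.89e-07). FAR1, which arrests the cell cycle in response to pheromone, fell from 1629, 1549 and 1479 to 74.0, 92.5 and 72.5 (log2 difference -4.29 ± 0.17, adjusted p = 2.55e-08). The scaffold STE5 was 2.05-fold lower and the transcription factor STE12 1.39-fold lower, the smallest differences of the list. The call on STE12 (adjusted p = 0.0253) was lost when CEN.PK113-7D replicate 1 or 3, or EC1118 replicate 1 or 3, was left out, with log2 differences from -0.48 to -0.40. Other haploid genes were lower as well. HO, the mating-type switching endonuclease, read 355, 338 and 344 against 49.3, 53.4 and 47.0, 6.94-fold lower (log2 difference -2.79 ± 0.07, adjusted p = 6.75e-10), and RME1, a repressor of meiosis, 992, 1062 and 999 against 120.4, 111 and 125, 8.57-fold lower. NEJ1, a factor of non-homologous end joining, was at the floor on all EC1118 arrays and read 70.7, 59.6 and 47.1 in CEN.PK113-7D.

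Genes induced by pheromone were lower in EC1118 for 12 of 18 measured members and higher for 0, with a median log2 difference of -1.42. AGA1, the anchor subunit of agglutinin, read 1176, 1011 and 1091 in CEN.PK113-7D and 65.3, 78.7 and 64.8 in EC1118 (log2 difference -3.98 ± 0.31, adjusted p = 4.98e-06). FUS1, a membrane protein of cell fusion, fell from 628, 659 and 682 to 44.2, 47.6 and 36.7, 15.4-fold lower. PRM5, a pheromone-regulated membrane protein, was 13.7-fold lower, PRM1, which acts in membrane fusion, 8.58-fold lower, and SST2, which turns the G protein off, 7.36-fold lower. No array of one strain reached the range of the other in these 5 genes, which were picked from the smallest adjusted p-values of the list. Of all 18 measured members, 15 were lower without overlap, against 26.4% of all genes, and 1 was higher without overlap.

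Alpha-specific genes did not follow that pattern. Of 5 measured members 2 were lower in EC1118 and 0 higher, and the median log2 difference was -0.43. AFB1, which encodes the a-factor barrier protein, read 243, 224 and 245 in CEN.PK113-7D and 92.8, 93.3 and 121 in EC1118 (log2 difference -1.22 ± 0.14, adjusted p = 9.70e-05). STE3, the receptor for a-factor, read 87.7, 72.8 and 70.8 against 59.5, 56.3 and 55.1, and its call (log2 difference -0.43 ± 0.16, adjusted p = 0.0488) was lost under 13 of the 19 alternatives that kept it. Both genes were thus lower in EC1118, but by far less than the a-specific genes.

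MF(ALPHA)1, which encodes the alpha-factor precursor, read 144, 136 and 233 in CEN.PK113-7D and 338, 377 and 394 in EC1118, a log2 difference of 1.16 ± 0.56 that missed the threshold (adjusted p = 0.124). Without CEN.PK113-7D replicate 3 at 15 °C, which widened the shared estimate of the spread, the same difference passed. It also passed with the 6 arrays at 30 °C alone and with the replicate block. SAG1, alpha-agglutinin, had a log2 difference of -0.47 ± 0.42 (adjusted p = 0.397), which passed without that same 15 °C array and with the 30 °C arrays alone. MF(ALPHA)2 had one of -0.09 ± 0.51 with overlapping arrays.

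The probe set for HMLALPHA1, which encodes the alpha1 activator and whose sequence also lies at the MAT locus of alpha cells, read 16.0, 15.1 and 17.2 in CEN.PK113-7D and 51.2, 57.1 and 59.3 in EC1118, 3.47-fold higher (log2 difference 1.80 ± 0.08, adjusted p = 8.50e-08). HMRA1, which encodes the a1 repressor subunit and likewise matches MAT in a cells, read 499, 592 and 544 against 257, 244 and 295, 2.05-fold lower (log2 difference -1.04 ± 0.19, adjusted p = 0.00165). The alpha sequence was thus brighter on every EC1118 array and the a sequence brighter on every CEN.PK113-7D array. HMRA2 had a log2 difference of -0.19 ± 0.13 (95% interval -0.49 to 0.11) that missed the threshold.

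IME4, which encodes the mRNA methyltransferase needed to enter sporulation in diploids, read 10, 11.9 and 10 in CEN.PK113-7D and 208, 249 and 214 in EC1118, at least 21-fold higher (log2 difference 4.39 ± 0.51, adjusted p = 9.40e-05). Most genes of meiosis and sporulation did not share that direction. Of 33 measured members 2 were higher in EC1118, IME4 and ZIP2, while 17 were lower, with a median log2 difference of -0.48. SPS1, a kinase of spore wall formation, read 58.4, 65.2 and 78.8 against 29.4, 26.5 and 27.5, and DIT1, an enzyme of the spore wall, 36.8, 29.3 and 39.3 against 18.4, 15.1 and 18.2. With the dimmest 25% of probe sets left out, 1 member of this list was lower and 0 were higher, since members below that brightness were not tested, and with quantile normalization 6 were higher.

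Some transcripts were detected in only 1 of the strains at 30 °C. At the floor on all EC1118 arrays and at 100 or more on all CEN.PK113-7D arrays were 10 genes, and 4 genes were the reverse. ASP3-1, which encodes the cell-wall asparaginase induced by nitrogen starvation, read 6335, 6231 and 6193 in CEN.PK113-7D and 10 on each EC1118 array, at least 625-fold lower (log2 difference -9.29 ± 0.05, adjusted p = 4.36e-15). It had the widest difference of any gene measured and sits in a set of repeated copies in the reference genome. By its name, its probe set is one that shares sequence between genes. COS6, a subtelomeric membrane protein gene, read 1269, 1199 and 997 in CEN.PK113-7D and was at least 115-fold lower, and the uncharacterized YIL014C-A read 1228, 528 and 1033 and was at least 87.5-fold lower. SRD1, which acts in pre-rRNA processing, was not one of the 10 genes, since its EC1118 arrays lay above the floor. It read 1323, 1219.7 and 1279 against 28.7, 29.1 and 29.6, 43.7-fold lower. PRM8, a DUP240 membrane protein gene, and FEX2, which encodes a fluoride exporter, read 364, 383 and 378 and 111, 181 and 142 in CEN.PK113-7D.

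In the other direction ADH7, which encodes an NADPH-dependent alcohol dehydrogenase, was at the floor on every CEN.PK113-7D array and read 3501, 1609 and 2971 in EC1118, at least 256-fold higher (log2 difference 8.0 ± 0.63, adjusted p = 5.69e-06). ARN2, a transporter of iron-bound siderophores, read 157, 142 and 157 in EC1118, AIF1, a mitochondrial cell death effector, 147, 141 and 156, and RDS1, a zinc cluster transcription factor, 104, 110.2 and 112. EC1118 replicate 2 was the lowest of its group for ADH7, and the spread of the other 3 genes was small. SEO1, a permease-like gene, was also at the floor in CEN.PK113-7D and read 71.2, 135 and 87.4 in EC1118, at least 9.43-fold higher.

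**Figure D2:**
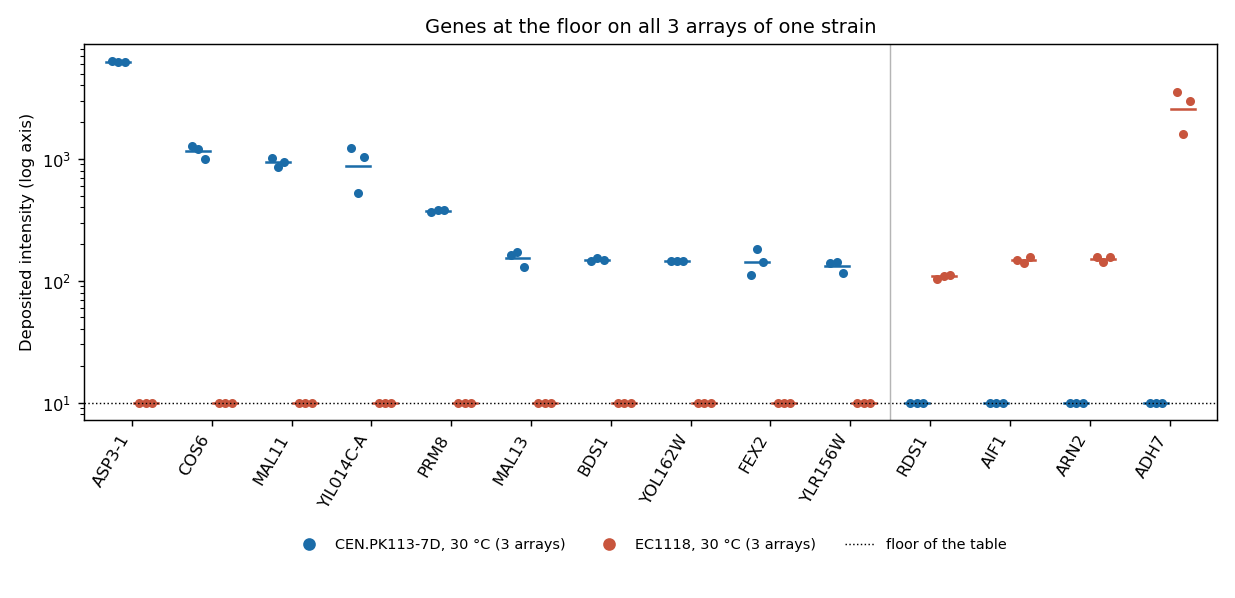
Intensity (log axis) of the 14 genes that were at the floor of 10 on all 3 arrays of either strain and at 100 or more on all 3 arrays of the other. The 10 genes left of the grey line were seen in CEN.PK113-7D only and the 4 on the right in EC1118 only; points are arrays and short lines means of log2 values.

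Some neighbouring genes shared such differences, although the number of runs to be expected without any such tendency was not estimated. Going along each chromosome in the order of the RefSeq gene table (assembly R64), there were 12 runs of 3 or more measured neighbours that all passed in the same direction with at least 2-fold differences. The 2 runs of 4 genes lay on chromosomes IV and VI. On chromosome IV the run was YDR034C-A, ARO3, EHD3 and KRS1, all higher in EC1118. KRS1, the essential cytosolic lysyl-tRNA synthetase, read 75.3, 70.9 and 62.5 in CEN.PK113-7D and 1768, 1628 and 1488 in EC1118, 23.4-fold higher (log2 difference 4.55 ± 0.14, adjusted p = 3.69e-09). EHD3, a mitochondrial hydroxyisobutyryl-CoA hydrolase, read 13.7, 10 and 13.3 against 335, 484 and 379, and ARO3, the first enzyme of aromatic amino acid synthesis, 470.3, 433 and 416 against 1007, 1079.7 and 974. Runs were defined by a shared direction, so the direction of KRS1 within its run is no separate result.

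Chromosome VI held the run SNO3, SNZ3, AAD6 and AGP3, all lower in EC1118. SNZ3 and SNO3, of the vitamin B6 and thiamine pathways, were 2.17-fold and 2.58-fold lower. AAD6, an aryl-alcohol dehydrogenase homologue, read 89.6, 82.1 and 72.1 in CEN.PK113-7D and AGP3, an amino acid permease, 68.4, 63.9 and 50.9, and both were at the floor on all EC1118 arrays. Of the 10 runs of 3, singled out after their values were seen, 8 were lower in EC1118. Among these were ASP3-1, YLR156W and YLR157W-E on chromosome XII, BDS1, YOL163W and YOL162W on XV, and MAL13, MAL11 and COS6 on VII. ADH7, RDS1 and AAD3 on chromosome III and YHL048C-A, COS8 and ARN2 on VIII were runs higher in EC1118.

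**Figure D3:**
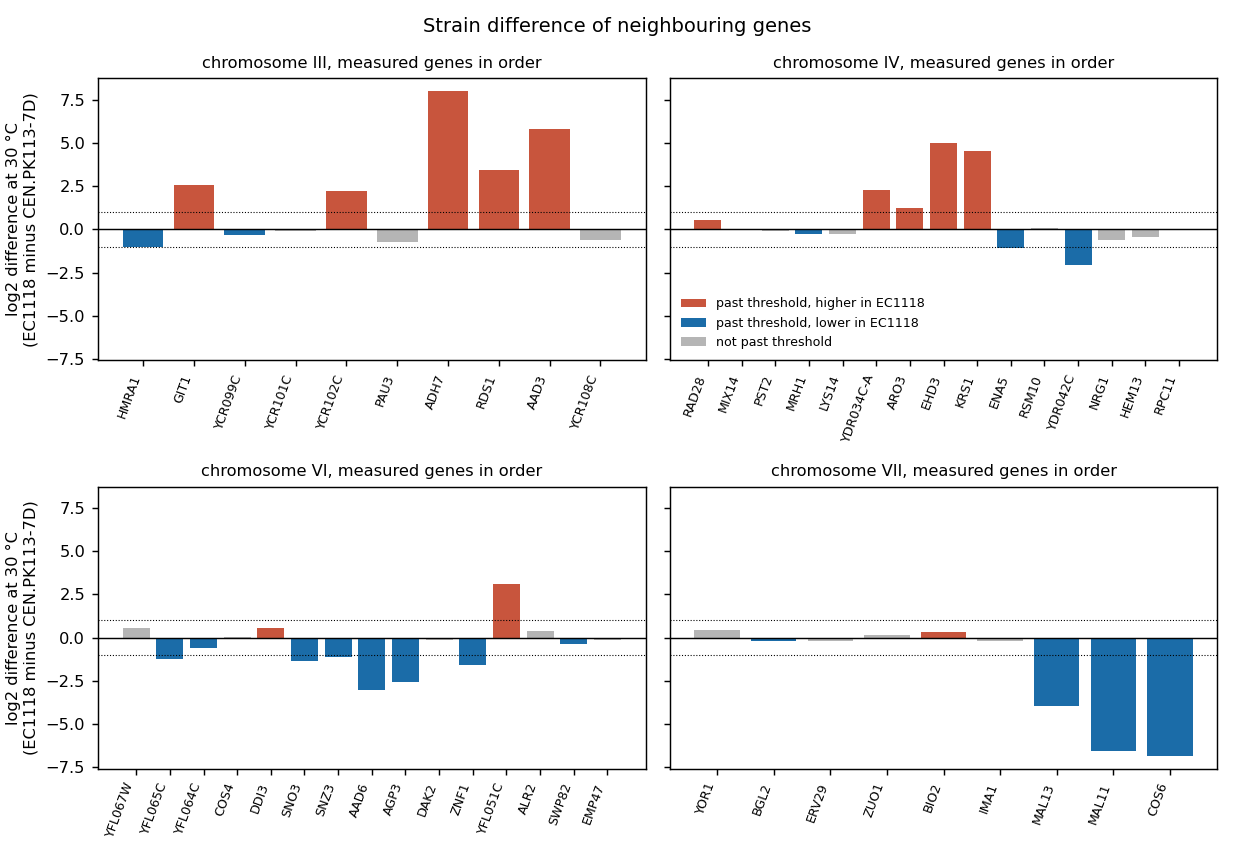
Log2 difference at 30 °C (EC1118 minus CEN.PK113-7D) of measured genes in their order on 4 chromosomes, up to 7 genes to each side of RDS1, EHD3, AAD6 and MAL11. Red and blue bars passed adjusted p of 0.05, grey bars did not, and dotted lines mark 2-fold; ADH7, RDS1 and AAD3 stand together above the line, and MAL13, MAL11 and COS6 below it.

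Strain differences were more frequent close to chromosome ends. Of the 160 genes that were among the 5 measured genes next to an end, 31.9% were at least 2-fold different, 20 higher and 31 lower in EC1118. The next 5 genes from each end gave 21.2% (9 higher, 25 lower), the following 10 genes 9.38%, and the 4809 genes further in 5.84%, against 7.27% of all genes. The COS family of subtelomeric membrane proteins went both ways, with 3 of 8 measured members higher and 4 lower in EC1118. COS8 read 34.3, 32.7 and 29.5 in CEN.PK113-7D and 423, 360.3 and 374 in EC1118, 12-fold higher, and COS12 15.4, 12.3 and 14.0 against 96.3, 96.3 and 99.1, while COS7 read 1393, 1333 and 1188 against 177, 162 and 157. Of the DUP240 family 3 of 5 measured members were lower, among them UIP3 (722, 787 and 745 against 231, 204 and 225).

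The PAU family, seripauperin genes of anaerobic growth, had 2 of 13 measured members higher and 5 lower. PAU5 read 1231, 801 and 739 in CEN.PK113-7D and 216, 180.3 and 212 in EC1118 (log2 difference -2.15 ± 0.36, adjusted p = 0.00102), and PAU23 1522, 1539 and 1616 against 3146, 2376 and 2936. The PAU counts moved with single arrays: without EC1118 replicate 2 there were 3 lower, and 1 higher without CEN.PK113-7D replicate 1 or 2, or EC1118 replicate 2 or 3. Probe sets in these families can share sequence between near-identical copies, so a value may belong to several genes. By their probe set names this holds for 11 of the 13 PAU members and 3 of the 8 COS members, PAU5 and COS7 among them. Examples among genes described elsewhere are ASP3-1, AAD3, AAD4, ENA5, MAL32, SNO3 and SNZ3.

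Among the genes named for the most negative differences were 3 Ty1 retrotransposon genes, and the other retrotransposon genes were not counted here. YAR010C read 5950.3, 5585 and 5709.6 in CEN.PK113-7D and 54.9, 56.0 and 52.0 in EC1118, 106-fold lower (log2 difference -6.73 ± 0.31, adjusted p = 8.50e-08), and YAR009C 1845, 2038 and 1608 against 81.8, 27.9 and 50.2. YDR261C-D was 28.4-fold lower. These 3 probe sets cover sequence that occurs in many copies, and their signal sums over copies.

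Genes for the parting of daughter from mother cells made up one of the most one-sided lists. Of 14 measured members 12 were lower in EC1118, 7 of them at least 2-fold, and 1 was higher (ISR1), with a median log2 difference of -1.07. DSE2, a daughter-specific glucanase-like protein, read 2213, 2265 and 1696 in CEN.PK113-7D and 314, 207 and 272 in EC1118, 7.83-fold lower (log2 difference -2.97 ± 0.16, adjusted p = 2.57e-07). CTS1, the chitinase that cuts the septum, fell from 4203, 4125 and 3716 to 681, 544 and 817, 5.97-fold lower (log2 difference -2.58 ± 0.13, adjusted p = 2.35e-07). AMN1, a daughter-specific antagonist of mitotic exit, read 1512, 1476 and 1322 against 231, 211 and 222, 6.49-fold lower, and DSE1 684, 692 and 716 against 155, 102 and 129, 5.50-fold lower. All CEN.PK113-7D arrays lay above all EC1118 arrays in these 4 genes, which were picked by adjusted p. Over the list this held for 13 of 14 measured members, against 26.4% of all genes. The call on ISR1 was lost without CEN.PK113-7D replicate 1 or 2, or without EC1118 replicate 1 or 2.

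Cell wall genes went the same way, with 21 of 39 measured members lower in EC1118 and 1 higher, CWP1, and a median log2 difference of -0.29. YPS3, a yapsin protease of the cell surface, read 318, 402 and 348 in CEN.PK113-7D and 39.1, 32.4 and 46.5 in EC1118, 9.11-fold lower (log2 difference -3.19 ± 0.18, adjusted p = 3.85e-07). SUN4, a glucanase-like protein of septation, read 1949, 2044 and 2016 against 769, 728 and 794, and CHS1, the chitin synthase that repairs the septum, 776, 691 and 722 against 251, 235 and 296. SLT2, the MAP kinase of cell wall integrity, was 1.92-fold lower and SIM1 2.10-fold lower. Most of these were moderate differences, with 7 of the 21 reaching 2-fold.

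Flocculins and regulators of filamentous growth were lower for 9 of 19 measured members and higher for 3. FLO11, the adhesin of films and invasive growth, read 4381, 4145 and 3868 in CEN.PK113-7D and 2863, 2361 and 2648 in EC1118, 1.58-fold lower (log2 difference -0.66 ± 0.08, adjusted p = 1.11e-04). TEC1, which drives filamentation genes, fell from 873, 919 and 944 to 207, 247 and 229, 4.01-fold lower, and SFG1, another regulator of filamentous growth, from 731, 657 and 401 to 153, 90.5 and 123. MGA1, a heat-shock-factor-like regulator of pseudohyphal growth, was 2.79-fold higher in EC1118.

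Maltose genes were lower for 9 of 10 measured members, with a median log2 difference of -1.61. CEN.PK113-7D is known to carry MAL2-8c, an allele that expresses maltose genes without maltose. MAL11, the high-affinity maltose transporter, read 1006, 857 and 946 in CEN.PK113-7D and was at the floor on all EC1118 arrays, at least 93.4-fold lower (log2 difference -6.55 ± 0.17, adjusted p = 9.19e-10). MAL32, maltase, read 1972, 1553 and 1692 against 90.3, 79.0 and 61.0, 22.8-fold lower (log2 difference -4.51 ± 0.24, adjusted p = 2.37e-07), and the activator MAL33 267, 269.9 and 266 against 104, 76.1 and 77.1. MAL13, another activator, was at the floor in EC1118. IMA1, an isomaltase, was the member that missed the threshold.

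Hexose transport genes went both ways, with 4 of 21 measured members higher and 4 lower and a median of -0.02, near the shares of all genes. HXT1, the low-affinity transporter of high glucose, read 246, 287 and 294 in CEN.PK113-7D and 2634, 3118 and 2866 in EC1118, 10.4-fold higher (log2 difference 3.38 ± 0.32, adjusted p = 1.96e-05). MIG2, a repressor that acts at high glucose, read 417, 462 and 509 against 904, 832 and 945, 1.93-fold higher, and the sensor RGT2 was 1.48-fold higher. HXT2, a transporter of low glucose, was instead lower, with 1371, 1001 and 1258 against 412, 95.8 and 215 (log2 difference -2.55 ± 0.46, adjusted p = 0.00145). Its EC1118 arrays differed widely among themselves, yet all lay below the lowest CEN.PK113-7D array. HXT9 lost its call without CEN.PK113-7D replicate 3 or EC1118 replicate 1 or 2, and the list had 2 lower members without CEN.PK113-7D replicate 3 or EC1118 replicate 1.

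Galactose genes were split, with 1 of 6 higher and 2 lower. GAL10, the epimerase, read 90.9, 94.7 and 119 in CEN.PK113-7D and 28.8, 22.3 and 29.1 in EC1118, 3.80-fold lower, and GAL7, the transferase, was 1.65-fold higher. The regulator GAL80 was 1.81-fold lower. GAL1 and GAL2 had log2 differences of 0.17 ± 0.12 and -0.04 ± 0.18, with overlapping arrays. Glycolysis and fermentation genes stayed near the median of all genes, at -0.02, with 3 of 32 higher and 9 lower. ALD6, the cytosolic aldehyde dehydrogenase that makes acetate, was the 1 member that passed with at least a 2-fold difference, at 3066, 3154 and 3592 in CEN.PK113-7D and 1195, 1618 and 1463 in EC1118, 2.31-fold lower (log2 difference -1.21 ± 0.11, adjusted p = 1.34e-05). The count of 9 lower genes fell to 4 without EC1118 replicate 2 and to 5 without CEN.PK113-7D replicate 3. The 3 higher genes became 6 with quantile normalization and 5 with the trend and robust options.

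In glycerol metabolism 3 of 11 measured members were higher and 1 lower. GPP2, a glycerol phosphatase, was 1.47-fold higher and GPD1, the first enzyme of glycerol synthesis, 1.26-fold higher, while STL1, a glycerol importer, read 104, 147 and 144 in CEN.PK113-7D and 73.6, 71.3 and 68.1 in EC1118. The third higher member, DAK1, lost its call (adjusted p = 0.0465) under 13 of the 20 alternatives run. The lower count became 2 without CEN.PK113-7D replicate 1 or EC1118 replicate 2 at 30 °C, or without replicate 3 of either strain at 15 °C. These were small differences beside those of the transporters above.

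Ribosome biogenesis genes were higher in EC1118. Of 102 measured members 64 were higher, against 21.2% of all genes, and 1 was lower, with a median log2 difference of 0.39 against 0.01 for all genes. NSR1, a nucleolar protein of rRNA processing, read 317, 271 and 325 in CEN.PK113-7D and 727, 646 and 579 in EC1118, 2.14-fold higher (log2 difference 1.10 ± 0.11, adjusted p = 3.97e-05). UTP5 and BMS1, of the small-subunit processome, read 238, 269.6 and 247 against 420.4, 463 and 455 and 445, 368 and 379 against 738, 705 and 609.7. BRX1, of large-subunit assembly, was 1.54-fold higher and IMP3 1.65-fold higher. The differences were small but regular, and only NSR1 among the higher members reached 2-fold.

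The lower member was SPB4, an RNA helicase of large-subunit assembly, with 366, 351 and 372 in CEN.PK113-7D and 185, 157 and 147 in EC1118 (log2 difference -1.16 ± 0.09, adjusted p = 7.12e-06). Without EC1118 replicate 2 there were 2 lower members. The ribosomal proteins themselves had a median of 0.03, with 21 of 128 measured members higher and 9 lower. That count moved with scaling and with single arrays. It was 39 higher and 4 lower with quantile normalization, 12 higher with arrays centred on the median, and 13, 10 and 11 higher without CEN.PK113-7D replicate 1, EC1118 replicate 1 and EC1118 replicate 3. RPS9A was 1.25-fold higher and RPL4B 1.47-fold lower.

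Proteasome genes were lower in EC1118 for 34 of 34 measured members, against 20.4% of all genes. Their median log2 difference was -0.56, with 0 at least 2-fold. RPT6, an ATPase of the regulatory particle, read 1703, 1539 and 1606 in CEN.PK113-7D and 909.9, 895 and 862 in EC1118, 1.82-fold lower (log2 difference -0.86 ± 0.07, adjusted p = 8.31e-06). RPN9, a lid subunit, read 1169, 1155 and 1180 against 690.4, 628 and 628, and SCL1, an alpha subunit of the core, 2077, 2225 and 2069 against 1235, 1225 and 1196, 1.74-fold lower. PUP3, a beta subunit, was 1.69-fold lower. For 33 of the 34 genes the arrays did not overlap and were lower in EC1118, against 26.4% of all genes.

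Chaperones and heat shock genes were lower for 23 of 31 measured members and higher for 2, with a median log2 difference of -0.52. SSA2, a cytosolic Hsp70, read 3620.5, 3627 and 3784 in CEN.PK113-7D and 1515, 1269 and 1412 in EC1118, 2.64-fold lower (log2 difference -1.40 ± 0.08, adjusted p = 4.34e-07). AHA1, a co-chaperone of Hsp90, read 2026, 2034 and 2222 against 778, 747 and 843, and SIS1, an Hsp40, 2363, 2408 and 2538 against 1203, 1462 and 1203. BTN2, which sorts misfolded proteins, was 14.0-fold lower, and its CEN.PK113-7D arrays spread from 1211 to 2747 with replicate 3 the highest. HSP31, a methylglyoxal-handling chaperone, went the other way, from 1280.3, 1159 and 1422 to 2928, 3402 and 3083, 2.44-fold higher (log2 difference 1.29 ± 0.10, adjusted p = 5.04e-06). The second higher member was SSB2, a ribosome-bound Hsp70.

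Genes of the general stress response driven by Msn2 and Msn4 were higher for 13 of 49 measured members, against 21.2% of all genes. They were lower for 6, against 20.4%, and their median log2 difference was 0.30. SIP18, a protein of desiccation tolerance, read 157, 164 and 155 in CEN.PK113-7D and 445, 3423 and 1565 in EC1118, 8.42-fold higher (log2 difference 3.07 ± 0.64, adjusted p = 0.00330). That fold was 14.6 without EC1118 replicate 1 and 5.26 without EC1118 replicate 2. GAC1, a regulator of glycogen storage, read 412, 378 and 354 against 1127, 1375 and 1226, and the regulator USV1 220.2, 222 and 248 against 495, 703 and 508. HSP26, a small heat shock protein, was lower, at 3187, 3341 and 3703 against 223, 1080.4 and 431, and its fold of 7.24 was 11 without EC1118 replicate 2. TMA10 was 2.89-fold lower.

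Single arrays decided the count of this stress list. There were 21 higher members without EC1118 replicate 1, 8 without EC1118 replicate 2 or 3 or CEN.PK113-7D replicate 3, and 7 without CEN.PK113-7D replicate 2. The 6 lower members became 3 without CEN.PK113-7D replicate 3 or EC1118 replicate 1. The aquaporin AQY1, a water channel known for its role in spores and freezing, read 24.5, 40.4 and 72.9 in CEN.PK113-7D and 489, 2261 and 1264 in EC1118, 26.9-fold higher (log2 difference 4.75 ± 0.60, adjusted p = 1.70e-04) and 40.6-fold higher without EC1118 replicate 1. HSP30, a plasma membrane stress protein, read 547, 765 and 945 against 61.2, 919 and 83.6 with overlapping arrays. Its log2 difference of -2.13 ± 0.80 missed the threshold and was -3.36 and past it without EC1118 replicate 2.

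Trehalose genes were higher for 6 of 10 measured members and lower for 1, with a median of 0.35. NTH2, a trehalase, read 647, 586 and 639 in CEN.PK113-7D and 876, 1129 and 993 in EC1118, 1.59-fold higher, and PGM2, a phosphoglucomutase, 1077, 990.3 and 931 against 1548, 2252 and 2109, 1.95-fold higher. PGM1, the minor isozyme, was the lower member, at 363, 401 and 349 against 209.9, 216 and 225 (log2 difference -0.77 ± 0.09, adjusted p = 9.40e-05). In glycogen metabolism 4 of 14 were higher and 1 lower. GDB1, the debranching enzyme, was 1.83-fold higher, and GLG1, a glycogenin, 1.79-fold lower. EC1118 replicate 2 was the highest of the 3 arrays for NTH2, PGM2 and GDB1.

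Nuclear genes of the respiratory chain were higher for 10 of 45 measured members, against 21.2% of all genes, and lower for 0, with a median of 0.31. A positive difference was found in 38 of the 45, where the median log2 difference of all genes was 0.01. The called count was 6, and the median of the list 0.15, without EC1118 replicate 2. DLD1, a lactate dehydrogenase, read 606, 734 and 997 in CEN.PK113-7D and 1724, 1911 and 1743 in EC1118, 2.35-fold higher (log2 difference 1.23 ± 0.22, adjusted p = 0.00150). SDH1, a subunit of succinate dehydrogenase, read 1013, 1169.9 and 1091 against 1752, 2148 and 1943. Genes with known anaerobic induction had 3 of 24 members higher and 1 lower, SUT1, a regulator of sterol uptake (338, 274 and 277 against 175, 83.0 and 118). The sterol importer AUS1 read 3744, 3001 and 2406 against 2042, 429 and 958 and missed the threshold (adjusted p = 0.0639). It passed under 4 of the alternatives run. The lower count was 4 without EC1118 replicate 1 and 2 without EC1118 replicate 3 at 15 °C, and the higher count was 1 without CEN.PK113-7D replicate 2 or EC1118 replicate 2 or 3.

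Both strains were limited for nitrogen. In the list of nitrogen use genes 7 of 34 measured members were higher and 13 lower, ASP3-1 among them. DUR3, the transporter of urea and polyamines, read 849, 957 and 959 in CEN.PK113-7D and 2245, 2746 and 2199 in EC1118, 2.59-fold higher (log2 difference 1.37 ± 0.12, adjusted p = 9.12e-06). MEP1, an ammonium permease, read 1682, 1677 and 1614 against 707, 776 and 726, 2.25-fold lower (log2 difference -1.17 ± 0.09, adjusted p = 3.37e-06), and PUT3, the activator of proline use, 425, 416 and 400.3 against 129, 121 and 117, 3.38-fold lower. GDH1, the NADPH-dependent glutamate dehydrogenase, was 1.45-fold lower. Uptake genes for different nitrogen sources thus lay on both sides.

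Permeases of amino acids and peptides were split as well, with 7 of 23 higher and 8 lower. The lower side rested on dim probe sets: with these left out and not tested, 0 members were lower. The median log2 difference of the list was then 0.53, against 0.07 with all measured members. OPT1, the transporter of glutathione and oligopeptides, read 386, 383 and 374 in CEN.PK113-7D and 1901, 2678 and 2306 in EC1118, 5.97-fold higher (log2 difference 2.58 ± 0.17, adjusted p = 1.45e-06). SAM3, which imports S-adenosylmethionine, was 1.80-fold higher. TAT2, the tryptophan permease, read 143, 125 and 180.3 against 51.5, 50.1 and 54.9, 2.84-fold lower, and AGP2, a carnitine and amino acid permease, was 3.74-fold lower. DIP5, for glutamate and aspartate, read 2819, 1968 and 1757 against 4236, 3276 and 3237, and its call (adjusted p = 0.0188) was lost without CEN.PK113-7D replicate 2 or 3 or EC1118 replicate 1.

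Amino acid synthesis genes were lower for 18 of 60 measured members and higher for 4, with a median of -0.10. LEU2, of leucine synthesis, read 2190.1, 2149 and 2494 in CEN.PK113-7D and 1247, 1174 and 1244 in EC1118, 1.86-fold lower (log2 difference -0.90 ± 0.07, adjusted p = 8.22e-06). ASN1, an asparagine synthetase, was 1.5-fold lower and SER1, of serine synthesis, 1.55-fold lower, while ARO3 was the sole member at least 2-fold higher. The higher count was 1 without CEN.PK113-7D replicate 2 and 2 without EC1118 replicate 3.

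Genes of the Ehrlich pathway and of ester formation, which make aroma compounds from amino acids, were lower for 8 of 15 and higher for 3. SFA1, a formaldehyde and long-chain alcohol dehydrogenase, read 571, 488 and 513 in CEN.PK113-7D and 1499.6, 1581 and 1507 in EC1118, 2.92-fold higher (log2 difference 1.55 ± 0.11, adjusted p = 2.42e-06). ARO8, an aromatic aminotransferase, was 1.5-fold lower, ARO10, a 2-oxo acid decarboxylase, 1.87-fold lower and ATF1, which makes acetate esters, 1.29-fold lower. The lower count was 4 without CEN.PK113-7D replicate 1 and 5 without CEN.PK113-7D replicate 3 or EC1118 replicate 2. Among aryl-alcohol and NADPH-linked alcohol dehydrogenases, AAD3 read 12.1, 10 and 10 against 818, 448 and 606, at least 56.8-fold higher, on a probe set that shares sequence with other genes, and 10, 10 and 10 against 136, 68.0 and 99.3, at least 9.72-fold higher, on its own probe set. AAD4, also on a shared probe set, read 833, 777 and 961 against 128, 131 and 139.8, 6.42-fold lower. ADH6, the paralogue of ADH7, had a log2 difference of -0.10 ± 0.10 (95% interval -0.32 to 0.11) and missed the threshold.

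Iron regulon genes were lower for 16 of 29 measured members and higher for 4, with a median of -0.47. ENB1, the transporter of iron-bound enterobactin, read 439.7, 382 and 335 in CEN.PK113-7D and 13.2, 22.4 and 20.5 in EC1118, 21-fold lower (log2 difference -4.39 ± 0.18, adjusted p = 3.24e-08). FET3, the multicopper oxidase of reductive uptake, read 83.1, 97.6 and 122 against 20.0, 23.3 and 29.5, 4.16-fold lower, and FIT2, a mannoprotein that retains siderophores, 155, 169 and 167 against 22.5, 27.4 and 31.7, 6.06-fold lower. ARN1 was 1.92-fold lower, and its relative ARN2 was the gene seen in EC1118 alone. The siderophore transporters therefore differed in both directions.

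Copper genes had 4 of 13 higher and 2 lower. CTR3, a high-affinity copper transporter, read 256, 155 and 172 in CEN.PK113-7D and 1332, 1844 and 1384 in EC1118, 7.93-fold higher (log2 difference 2.99 ± 0.44, adjusted p = 4.21e-04). CTR1, the other high-affinity transporter, read 307, 278 and 295 against 555, 608 and 494, 1.88-fold higher, and the reductase FRE7 was at least 3.71-fold higher. CUP2, the activator of metallothionein, was 2.32-fold lower, at 600.2, 665 and 752 against 286, 288 and 291. The other lower member, CCS1, lost its call without CEN.PK113-7D replicate 1 or 2 or EC1118 replicate 2.

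Phosphate genes went both ways, with 5 of 23 higher and 5 lower, near the shares of all genes (21.2% and 20.4%). PHO5, the secreted acid phosphatase, was at the floor on all CEN.PK113-7D arrays and read 111, 113 and 93.7 in EC1118, at least 10.6-fold higher (log2 difference 3.40 ± 0.29, adjusted p = 9.73e-06). GIT1, the glycerophosphoinositol transporter, read 109, 136 and 142 against 674, 905 and 698, 5.87-fold higher. PHO89, the sodium-linked phosphate transporter, read 347, 409 and 845 against 25.2, 23.5 and 20.4, 21.5-fold lower (log2 difference -4.43 ± 0.27, adjusted p = 8.11e-07), with CEN.PK113-7D replicate 3 the highest. HAL5, a kinase that promotes potassium uptake and salt tolerance, read 26.4, 29.1 and 28.4 against 466, 542 and 475, 17.7-fold higher (log2 difference 4.14 ± 0.09, adjusted p = 2.66e-10). For ENA5, a sodium pump, the 2 probe sets went in opposite directions: the brighter, which shares sequence with its neighbours, read 289, 298 and 453 against 154, 184 and 155, and the other was at the floor in CEN.PK113-7D and read 132, 157 and 140.2 in EC1118.

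Ergosterol genes were lower for 8 of 26 and higher for 3, with a median of -0.14, and ERG20, the farnesyl pyrophosphate synthase, read 1933, 2284 and 2226 in CEN.PK113-7D and 1148, 994 and 1156 in EC1118 (log2 difference -0.97 ± 0.08, adjusted p = 1.24e-05). The lower count was 5 without CEN.PK113-7D replicate 2 or 3, and with quantile normalization. INO1, which makes inositol phosphate, fell from 2348, 2693 and 2692 to 732, 319 and 729.6, 4.64-fold lower (log2 difference -2.21 ± 0.27, adjusted p = 1.18e-04), and ELO1, a fatty acid elongase, was 2.20-fold higher. In the list of fatty acid and phospholipid genes 9 of 30 were lower and 3 higher.

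**Figure D4:**
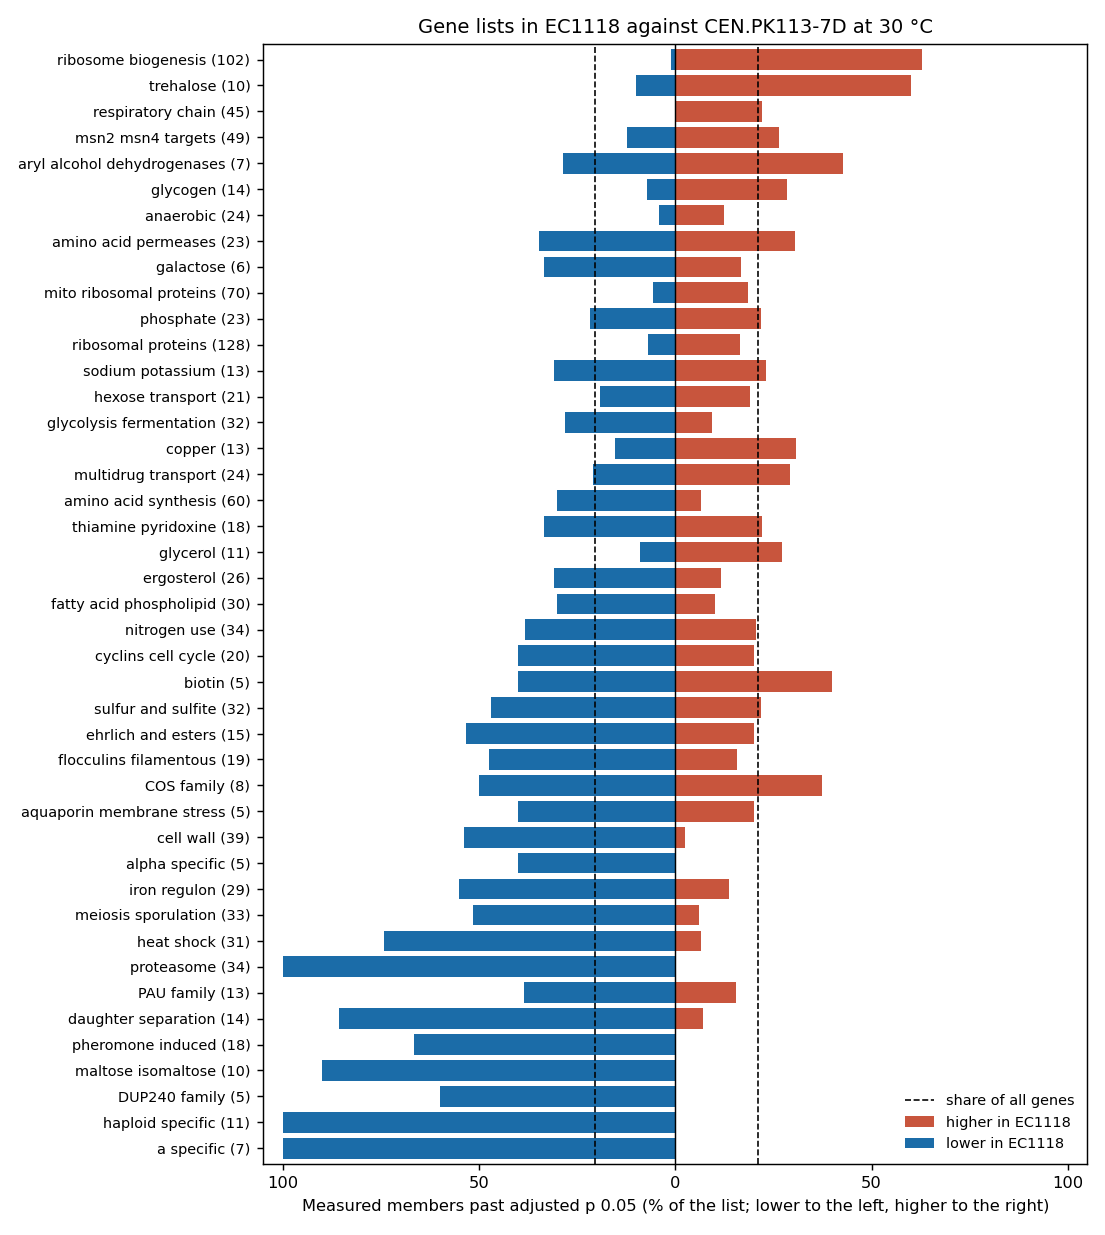
Share of the measured members of each gene list (number in brackets) that passed adjusted p of 0.05 at 30 °C, lower in EC1118 to the left and higher to the right, ordered by the median log2 difference. Dashed lines are the shares of all genes, 20.4% lower and 21.2% higher; proteasome, a-specific and haploid-specific genes reach 100% on the left, and ribosome biogenesis genes have 64 of 102 on the right.

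Whether the strain difference at 30 °C was itself different from that at 15 °C was tested as an interaction. It passed for 710 of 5449 genes (13%), with 239 (4.39%) more positive and 471 (8.64%) more negative at 30 °C, while the strains differed at 15 °C in 33.3% of genes. With quantile normalization the split was 353 and 366. Of the 135 genes that differed at least 4-fold at 30 °C, 119 (88.1%) passed in the same direction at 15 °C, 1 in the opposite direction, and 49 passed the interaction. Their 30 °C values chose these genes. Across genes, which are not independent, the differences at both temperatures correlated with r = 0.787. The 30 °C and 15 °C differences come from separate arrays. The ratio of the 3' to the 5' probe set of ACT1, a measure of RNA integrity, was 1.57 to 1.69 on the arrays at 30 °C and 1.32 to 1.44 on those at 15 °C, without overlap, and its part in the interaction was not tested.

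FLO11, the adhesin, had a lower signal in EC1118 at 30 °C and a higher one at 15 °C (log2 difference 3.08), where CEN.PK113-7D read 492, 528 and 548 and EC1118 4422, 4383 and 4404. The difference of the differences was -3.73 ± 0.11 (adjusted p = 5.79e-08). HXT2 turned in the same sense, with 1.85 at 15 °C and an interaction of -4.41 ± 0.65 (adjusted p = 0.00286). DIP5 was higher in EC1118 at both temperatures but more so at 15 °C (4.21, interaction -3.47 ± 0.30). For the phosphate transporter PHO84 the 15 °C difference was 2.84 and the interaction -3.61 ± 0.32. In these 4 genes every CEN.PK113-7D array at 15 °C lay below every one at 30 °C. The EC1118 arrays at 15 °C lay above those at 30 °C for FLO11 and PHO84.

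Daughter separation genes were less different at 15 °C, with a median log2 difference of -0.46 against -1.07 at 30 °C. Of these genes 8 of 14 passed the interaction, against 13% of all genes. DSE2 had -1.07 at 15 °C (interaction -1.89 ± 0.22, adjusted p = 0.00104) and CTS1 -1.14 (interaction -1.44 ± 0.19). Of the proteasome genes 15 of 34 were lower in EC1118 at 15 °C, with a median of -0.18, and 20 passed the interaction. For ribosome biogenesis 15 of 102 were higher at 15 °C, with a median of 0.11. The interaction passed for 19 of the 102, closer to the share of all genes than in those lists. The chaperone SSA2 had -0.52 at 15 °C (interaction -0.88 ± 0.11, adjusted p = 0.00148). Every daughter separation and proteasome gene that passed had the larger strain difference at 30 °C, as had 16 of the 19 ribosome biogenesis genes.

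COS12, higher in EC1118 at 30 °C, had a difference of 0.11 at 15 °C (interaction 2.70 ± 0.11, adjusted p = 6.30e-07), and AQY1 had 0.83 at 15 °C (interaction 3.92 ± 0.85, adjusted p = 0.0149). Alpha-specific genes were lower in EC1118 for 5 of 5 at 15 °C, and 4 passed the interaction, MF(ALPHA)1 with 4.20 ± 0.80 (adjusted p = 0.00845). Its CEN.PK113-7D arrays at 15 °C read 505, 776 and 2364, with replicate 3 well above the others. FAR1 was lower in EC1118 at both temperatures and more so at 15 °C (interaction 2.02 ± 0.24, but 0.28 with adjusted p = 0.418 on log2(intensity + 50)), whereas MFA2 was more so at 30 °C (interaction -2.06 ± 0.22).

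**Figure D5:**
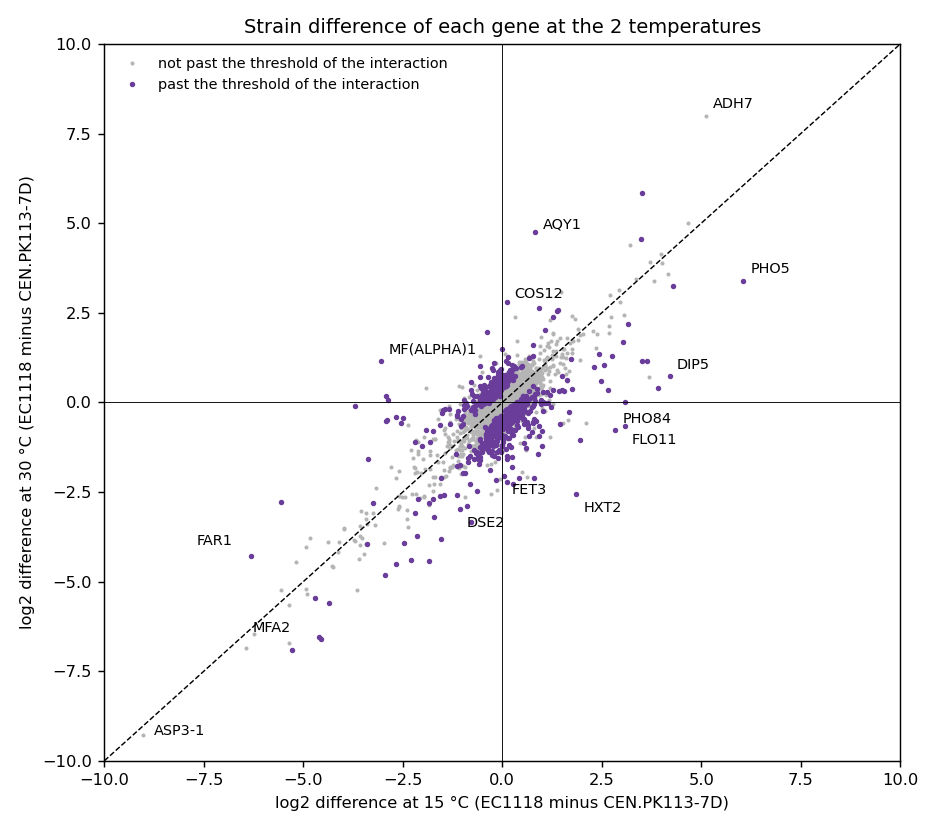
Log2 difference between the strains at 30 °C (vertical) against that at 15 °C (horizontal) for 5449 genes, with the 710 past the threshold of the interaction in purple and the dashed line where both are equal. FLO11 and HXT2 lie above 0 on the horizontal axis and below 0 on the vertical one, and ASP3-1 lies near the dashed line at the bottom left.

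The number of arrays limits the precision, and an exact permutation test of 3 arrays against 3 could not give a p below 0.1. Between the strains at 30 °C the ACT1 ratio overlapped, at 1.57 to 1.69 in CEN.PK113-7D and 1.64 to 1.67 in EC1118.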

How the data were processed

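The authors deposited 1 linear intensity value per probe set and array, and these were analysed as deposited. How the probe signals were summarised and normalized is not given in the sources used here. Per the labels' protocols, RNA came from cells chilled on ice and was labelled with a one-cycle kit. The platform annotation named the probe sets, with 12 symbols updated through RefSeq R64, which otherwise gave gene order only. Of 5716 probe sets 218 had no gene, and the brightest probe set on average stood for each of 5449 genes, 47 of which had several.

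The limma package (3.58.1, R 4.3.3) was run on log2 intensity of all 12 arrays (lmFit, eBayes, 1 coefficient per group, 8 residual and 2.11 prior degrees of freedom). Tests are two-sided, adjusted by Benjamini-Hochberg over 5716 probe sets. A fold is "at least" where an array of the dimmer strain is at the floor of 10. The fit was tested on simulated data. Genes named were the 15 most positive and 15 most negative differences past the threshold, the 6 smallest adjusted p-values in each list, all mating-type members, genes at the floor in 1 strain, runs of 4 neighbours, 8 genes at each end of the interaction and the 3 brightest genes. CWP1, ISR1, SSB2, ZIP2, IMA1, and the members of runs of 3 were named after their values were seen. Members and lists were chosen with earlier results of these data known. Of 45 lists 44 had a measured member, and the list of subtelomeric Y' helicases had 0. Same-numbered arrays of the strains had correlations of deviations of 0.33, 0.029 and 0.051, which did not meet the condition for pairing. Alternatives were a replicate block, the 6 arrays at 30 °C alone, median centring, quantile normalization, dim probe sets left out, log2 of intensity plus 50, the trend and robust options of eBayes, 1 probe set per gene, and each array left out in turn.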

Additional observations from a re-analysis of the deposited data

Results flagged for a closer look

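Listed here are 32 of the reported genes that passed the limma interaction with adjusted p under 0.05. For these the strain difference at 30 °C differed from that at 15 °C. Values are log2, the 30 °C difference minus the 15 °C difference, with its standard error. Other reported genes passed too, among them AAD3 on its brightest, shared probe set (2.31 ± 0.32, adjusted p = 0.0022) and KRS1 (1.08 ± 0.20, adjusted p = 0.0072). Negative values were found for HXT2 (-4.41 ± 0.65), FLO11 (-3.73 ± 0.11), PHO84 (-3.61 ± 0.32), YAR068W (-3.52 ± 0.48), DIP5 (-3.47 ± 0.30), the transporter gene AZR1 (-3.09 ± 0.75), which was at the floor in both strains at 30 °C, the sodium pump gene ENA5 (-3.00 ± 0.28) and YNL277W-A (-2.90 ± 0.40).

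Further negative values were those of the daughter separation genes DSE2 (-1.89 ± 0.22), DSE1 (-1.82 ± 0.17), CTS1 (-1.44 ± 0.19) and AMN1 (-0.96 ± 0.12), the mating genes MFA2 (-2.06 ± 0.22) and BAR1 (-1.63 ± 0.29), and the chaperone genes SSA2 (-0.88 ± 0.11) and AHA1 (-0.73 ± 0.09). INO1 (-2.32 ± 0.38), FET3 (-2.10 ± 0.25), TMA10 (-1.78 ± 0.22), CUP2 (-1.20 ± 0.13) and SLT2 (-0.93 ± 0.11) were also negative.

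Positive values were found for MF(ALPHA)1 (4.20 ± 0.80), AQY1 (3.92 ± 0.85), MF(ALPHA)2 (3.60 ± 0.72), the meiotic chromosome axis gene HOP1 (3.10 ± 0.24), the membrane protein gene YRO2 (2.96 ± 0.45), the mating gene FIG1 (2.77 ± 0.81), COS12 (2.70 ± 0.11) and PES4 (2.42 ± 0.39). STE3 (2.08 ± 0.22), FAR1 (2.02 ± 0.24) and NSR1 (0.95 ± 0.16) followed. FIG1 was close to the threshold, with an adjusted p of 0.0496, and lost the call under 13 of the alternatives run. AZR1 lost it without CEN.PK113-7D replicate 2 at either temperature or EC1118 replicate 3 at 30 °C, and FAR1 with a pseudocount of 50, where its value was 0.28. The value of ENA5 comes from the probe set shared with its neighbours, and its own probe set had 0.28 ± 0.12 (adjusted p = 0.148), which missed the threshold. Without CEN.PK113-7D replicate 3 at 15 °C the values were 3.56 for MF(ALPHA)1, 2.84 for MF(ALPHA)2, 1.95 for FIG1 and -3.72 for AZR1. FIG1 was 3.46 without CEN.PK113-7D replicate 1 at 15 °C, and AQY1 4.52 without EC1118 replicate 1 at 30 °C.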

How the results depend on the processing

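Of 287 genes followed, 262 passed at 30 °C, 243 of them in the same direction under every alternative that kept the gene. The call was lost under at least 1 alternative for 19, and 0 reversed. Genes removed as dim, BAR1, MAL11 and ADH7 among them, were not tested with dim probe sets left out. With each of the 12 arrays left out in turn, 1828 to 2434 genes passed, 880 to 1250 higher and 930 to 1184 lower in EC1118 (probe sets 1916 to 2554). The interaction counts moved most: 469 to 804 passed, 139 to 246 more positive and 326 to 558 more negative. The total of 469 came without EC1118 replicate 1 at 15 °C. The more positive genes were 157 and 143 without CEN.PK113-7D replicate 2 at 15 °C and 30 °C, 143 and 139 without EC1118 replicates 1 and 2 at 15 °C, and 158 without EC1118 replicate 3 at 30 °C. Leaving out dim probe sets gave 61 genes at least 2-fold higher and 129 lower, 10 at least 4-fold higher and 36 lower, and 159 more positive in the interaction, since fewer genes were tested. A pseudocount of 50, which shrinks folds of dim genes, gave 176 at least 2-fold lower, 17 at least 4-fold higher and 57 lower. With the replicate block 2408 genes passed (2531 probe sets) and 785 in the interaction. The block raised respiratory chain genes from 10 to 16 higher, genes with anaerobic induction from 3 to 7 higher and 1 to 4 lower, and cell wall genes from 1 to 2 higher, and the alpha-specific genes became 1 higher and 1 lower. Quantile normalization also gave 5 lower Ehrlich and ester genes, 2 lower hexose transport genes, 1 lower alpha-specific and 1 lower biotin gene, and 2 higher galactose and 2 higher cell wall genes. The 6 arrays at 30 °C alone gave 8 lower PAU genes, 5 lower ergosterol genes and 11 higher ribosomal proteins, and the trend and robust options 33 of the last. The same-numbered arrays were not shown to be pairs. Signals near the floor bound what folds can be given.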

Other observations

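Cell cycle genes were lower in EC1118 at 30 °C for 8 of 20 measured members and higher for 4, with a median log2 difference of -0.18. CLN2, a G1 cyclin, read 709, 725 and 610.4 in CEN.PK113-7D and 212, 250.5 and 238 in EC1118, 2.92-fold lower (log2 difference -1.54 ± 0.10, adjusted p = 1.03e-06), and PCL9, a cyclin of early G1, was 2.08-fold lower. The kinase CDC28 was 1.58-fold lower and its inhibitor SIC1 1.47-fold lower. The higher count was 1 without EC1118 replicate 1, and 2 without EC1118 replicate 2 or 3 or CEN.PK113-7D replicate 1 or 2. Sulfur genes were lower for 15 of 32 and higher for 7, with a median of -0.22. FZF1, the activator of the sulfite pump, was 1.55-fold lower and SAM4, a homocysteine methyltransferase, 1.80-fold higher.

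Among drug transport genes 7 of 24 were higher and 5 lower. PDR15, an ABC transporter, read 829.8, 714 and 768 in CEN.PK113-7D and 1883, 2566 and 2487 in EC1118, 2.98-fold higher (log2 difference 1.57 ± 0.15, adjusted p = 2.29e-05), and QDR2 63.4, 53.5 and 53.2 against 237, 167 and 247. RTA1, a lipid-translocating exporter homologue, read 361, 301 and 189.8 against 23.7, 25.7 and 33.5, 10.0-fold lower. Thiamine and pyridoxine genes were lower for 6 of 18 and higher for 4, with THI22 2.49-fold lower. The higher count was 1 without CEN.PK113-7D replicate 1 or EC1118 replicate 2, and 2 without CEN.PK113-7D replicate 2 or EC1118 replicate 3. For biotin the transporter VHT1 was 1.47-fold higher and BIO4, of its synthesis, 1.38-fold lower. Biotin genes had 2 of 5 lower, and 1 without CEN.PK113-7D replicate 2 or 3 or EC1118 replicate 1 or 3. Mitochondrial ribosomal proteins had 13 of 70 higher and 4 lower, 2 lower without EC1118 replicate 1, and MRPL51 was 1.92-fold higher.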
